A study of Mus musculus with 17 samples.

Results

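The upstream enhancers of the mouse alpha-globin genes lie together in a stretch of 31 kb, chromosome 11, 32141000 to 32172000 (mm9), most of them in introns of the gene Nprl3, whose promoter is at the R4 end. The results below concern three-way contacts in which a captured viewpoint met 2 fragments of that stretch in a single chromatin molecule. A member is a pair of restriction fragments whose midpoints both lie in the stretch, with fragments within 1 kb of the viewpoint's centre left out. The choice used position alone. There were 8868 such pairs among the 1997429 pairs of the study's 4 tables: 6047 of the 514959 pairs of the R2 viewpoint and 2821 of the 448951 pairs of the CTCF viewpoint. The assay was Tri-C, in which cross-linked chromatin is cut with NlaIII and ligated, and the viewpoint is then enriched by hybridisation. R2 is itself an enhancer of the cluster, and the CTCF viewpoint is a binding site of that protein beyond the R1 end, outside the stretch. The viewpoints are not listed as contacts, and left gaps in the tables centred on positions 32151017 and 32137490.

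Erythroid samples were Ter-119+ cells from the spleens of female mice of strain C57BL/6 that had received phenylhydrazine, an agent that destroys red cells, in 3 doses 12 h apart, with collection after 5 days. The comparison samples were E14 mouse embryonic stem (ES) cells, an established line of strain 129/Ola that received no such treatment. No genetic modification is given for either, nor an age for the mice. Cell type, strain and treatment therefore cannot be told apart. Each cell type had 3 biological replicates, sequenced as 10 erythroid and 7 ES libraries in all, and libraries of the same replicate were summed, so n = 3 against 3. The labels do not say whether biological replicates are separate animals or cultures, so p-values may measure only the spread between these samples.

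Enhancers are stretches of DNA that bind transcription factors and raise transcription of a gene elsewhere on the chromosome. In red cell precursors the alpha-globin genes are driven by the elements R1, R2, R3, Rm and R4, of which R1 and R2 are known as the strongest. Nprl3, the host gene, encodes a subunit of a complex that restrains growth signalling in response to amino acids and is active in many tissues. In ES cells the globin genes are silent. The design asks which elements meet on a single allele in either state.

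The cluster was cut into 11 segments: 5 enhancer windows of 3 kb, placed by the usual names that count kb from the embryonic gene Hba-x, and the stretches between and beside them. The windows lie at 32144517 to 32147516 for R1, 32149517 to 32152516 for R2, 32154517 to 32157516 for R3, 32163517 to 32166516 for Rm and 32167517 to 32170516 for R4. They are placed by name and not by a mark of activity. They hold unequal numbers of fragments: R1 14, R3 16, Rm 15 and R4 4, the last because 2 of its fragments are 1308 and 1871 bp long, whereas the median fragment of the cluster is 155 bp. From the R2 viewpoint the R2 window keeps 5 fragments at its edges, so it is not counted there as an enhancer partner.

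NlaIII cuts at CATG, so these letters set which stretches of the cluster can be seen as separate partners. One promoter of the region, that of Nprl3, is shown because it holds a pair of cut sites and because the R4 end of the cluster carried the largest differences described below. The sequence is RefSeq's, assembly GRCm38.p6, chr11:32267700-32267957, minus strand, running from 250 bases before the start of the gene to 8 bases after it, with each CATG in capitals.
Nprl3 promoter: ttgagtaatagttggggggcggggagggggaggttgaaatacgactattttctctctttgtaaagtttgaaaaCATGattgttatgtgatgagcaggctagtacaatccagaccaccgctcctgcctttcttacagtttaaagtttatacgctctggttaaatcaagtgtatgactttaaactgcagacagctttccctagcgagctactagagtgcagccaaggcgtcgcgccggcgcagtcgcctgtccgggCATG
Its 2 sites lie 181 bases apart. CATG, which reads the same on both strands, occurs in 61.1% of the 32851 promoters of the same table, and 28.1% hold it more than once. Of the 149 fragments of the cluster, 1 is 181 bp long: chr11:32167702-32167882 (mm9), at the edge of the R4 window. The assemblies differ and a length is not a sequence, so the match is a description.

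The counts of all pairs per biological replicate lay between 139337 and 469501 for R2 and between 129858 and 459669 for CTCF, and those of cluster pairs between 13378 and 39658 for R2 and between 4030 and 14573 for CTCF. ES replicate 2 stood apart: its cluster pairs from R2 had 14.8 to 14.9 counts per distinct fragment pair in a library, against 2.95 to 10.7 in all other libraries. Tables also differed in how many pairs had both fragments on chromosome 11. From R2 the share was 30.6%, 25.9% and 41.6% in erythroid replicates 1 to 3, and 63.3%, 77.0% and 66.8% in ES replicates 1 to 3. From CTCF it was 55.4%, 50.0% and 66.2% against 52.9%, 65.9% and 56.7%. The remainder had at least 1 fragment listed on another chromosome. Among pairs listed with both fragments elsewhere, 1 in the R2 table and 2 in the CTCF table carried positions of the cluster's range, and these were not counted as members.

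Most cluster counts came from fragments that lie close together. Only 118 members of the R2 table and 129 of the CTCF table are direct neighbours on the restriction map. These neighbours nevertheless held 45.6%, 48.2% and 55.3% of the erythroid R2 counts and 52.3%, 62.9% and 50.4% of the ES counts. From CTCF they held 57.0%, 60.7% and 60.3% against 54.2%, 60.0% and 54.8%. The groups overlapped from both viewpoints. Pairs 10 kb or more apart held 11.9%, 9.70% and 7.18% of the erythroid R2 counts and 8.57%, 4.17% and 8.78% of the ES counts, with ES replicate 2 the lowest. The median separation from R2 was 0.265, 0.262 and 0.202 kb in erythroid replicates and 0.238, 0.173 and 0.254 kb in ES replicates (exact two-sided permutation p = 0.5).

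**Figure D1:**
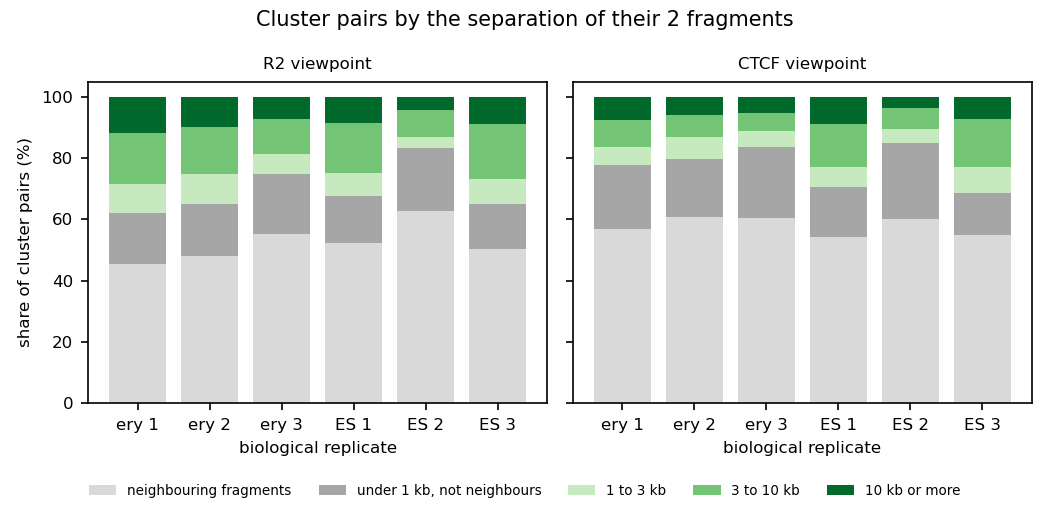
Share of cluster pairs (%, vertical axis) by the separation of their 2 fragments, 1 bar per biological replicate (ery, erythroid) and 1 panel per viewpoint; neighbouring fragments are direct neighbours on the restriction map. Neighbours make up 45.6% to 62.9% of every R2 bar and 54.2% to 60.7% of every CTCF bar.

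The leading single members were neighbours too. From R2 the highest erythroid count was that of chr11:32148971-32149124 with chr11:32149125-32149196, in the gap between R1 and R2, at 299, 200 and 574 counts. The next were 32149197 to 32149654 with 32149655 to 32149713, at 220, 208 and 520, and 32148538 to 32148589 with 32148590 to 32148623, at 233, 129 and 579. In ES cells the first was 32152112 to 32152251 with 32152252 to 32152364, on the R3 side of the R2 window, at 518, 568 and 356 counts, followed by 32152252 to 32152364 with 32152365 to 32152443 at 580, 428 and 359. The third ES pair was the second of the erythroid order, at 566, 388 and 359 counts. All of these pairs lie within 3 kb of the R2 centre.

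From CTCF the leading members lay in the stretch upstream of R1, the end of the cluster nearest to that viewpoint. The pair 32142847 to 32142958 with 32142959 to 32143077 led in both cell types, at 122, 104 and 357 erythroid and 209, 133 and 93 ES counts. It was followed in erythroid cells by 32142959 to 32143077 with 32143078 to 32143151, at 91, 109 and 383 counts, and by 32143078 to 32143151 with 32143152 to 32143170, at 116, 165 and 279. In ES cells the pairs 32141498 to 32141645 with 32141646 to 32142586, at 222, 115 and 78 counts, and 32143171 to 32143326 with 32143327 to 32143366, at 215, 130 and 64, came next.

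Counted by fragment, 32148971 to 32149124 led the erythroid R2 table with 3226 counts, then 32149197 to 32149654 with 3040 and 32148538 to 32148589 with 2809. The ES order was 32152252 to 32152364 with 4234, 32148538 to 32148589 with 3410 and 32152365 to 32152443 with 3262. From CTCF the same 3 fragments led in both cell types: 32143078 to 32143151 (1869 erythroid, 1142 ES counts), 32143171 to 32143326 (1828 and 1305) and 32142959 to 32143077 (1635 and 1312).

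Single pairs further apart were thinly counted and seldom seen in every replicate. Of the distinct R2 pairs 3 kb or more apart, 6.03% in erythroid and 4.94% in ES cells were seen in all 3 replicates, against 32.9% and 27.5% of those closer together. From CTCF the shares were 0.23% and 0.36%, against 24.2% and 24.0%. The highest erythroid R2 count at that distance, 48, was shared by 2 pairs between R1 and the edge of the R2 window. The pair 32145844 to 32145960 with 32149655 to 32149713 had 9, 34 and 5 erythroid and 0, 1 and 0 ES counts. The pair 32145961 to 32146007 with 32149714 to 32149922 had 8, 4 and 36 erythroid and 0, 0 and 5 ES counts. In both, most erythroid counts came from 1 replicate. Differences below are therefore given for segments, over which many fragment pairs are summed.

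As a share of the whole R2 table, cluster pairs were less frequent in erythroid than in ES cells. Their level was 62.1, 46.5 and 77.4 per 1000 pairs in erythroid and 91.9, 192 and 106 in ES replicates 1 to 3. The groups did not overlap, and ES replicate 2 was the highest. The means were 62.0 ± 15.5 and 130 ± 54.1 (SD, n = 3). The difference of the mean log2 levels, the measure used for all levels here, was -1.02, and the exact permutation p of 0.1 is the smallest that 3 against 3 can give. Without ES replicate 2 the difference was -0.70. Per 1000 pairs on chromosome 11 the same counts gave 203, 179 and 186 against 145, 249 and 159, which overlapped, with a log2 difference of 0.08 (p = 0.8). The lower R2 level thus went with the lower share of erythroid R2 pairs on the chromosome, and was not seen within it.

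For pairs 3 kb or more apart, which leave out the close ligations, the R2 level was 17.7, 11.8 and 14.4 per 1000 pairs of the table in erythroid and 22.7, 25.1 and 28.5 in ES replicates. Per 1000 on the chromosome it was 57.8, 45.3 and 34.5 against 35.9, 32.7 and 42.8, so the groups overlapped and the direction of the means turned.

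From CTCF, distant cluster pairs were less frequent in erythroid cells under each scaling tried. The level of pairs 3 kb or more apart was 3.05, 2.00 and 3.58 per 1000 pairs of the table in erythroid and 7.27, 6.20 and 6.73 in ES replicates. No erythroid replicate reached an ES replicate, and the log2 difference was -1.26. Per 1000 pairs on the chromosome it was 5.51, 4.00 and 5.41 against 13.7, 9.40 and 11.9, a log2 difference of -1.23, and per 1000 pairs of the tested window it was -1.12. Each of these had the exact p of 0.1, the smallest possible here. All cluster pairs together were at 18.7, 15.3 and 31.7 against 31.6, 58.3 and 29.5 per 1000 of the table, where the groups overlapped. Per 1000 on the chromosome they were at 33.8, 30.7 and 47.9 against 59.6, 88.4 and 52.1, where they did not.

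**Figure D2:**
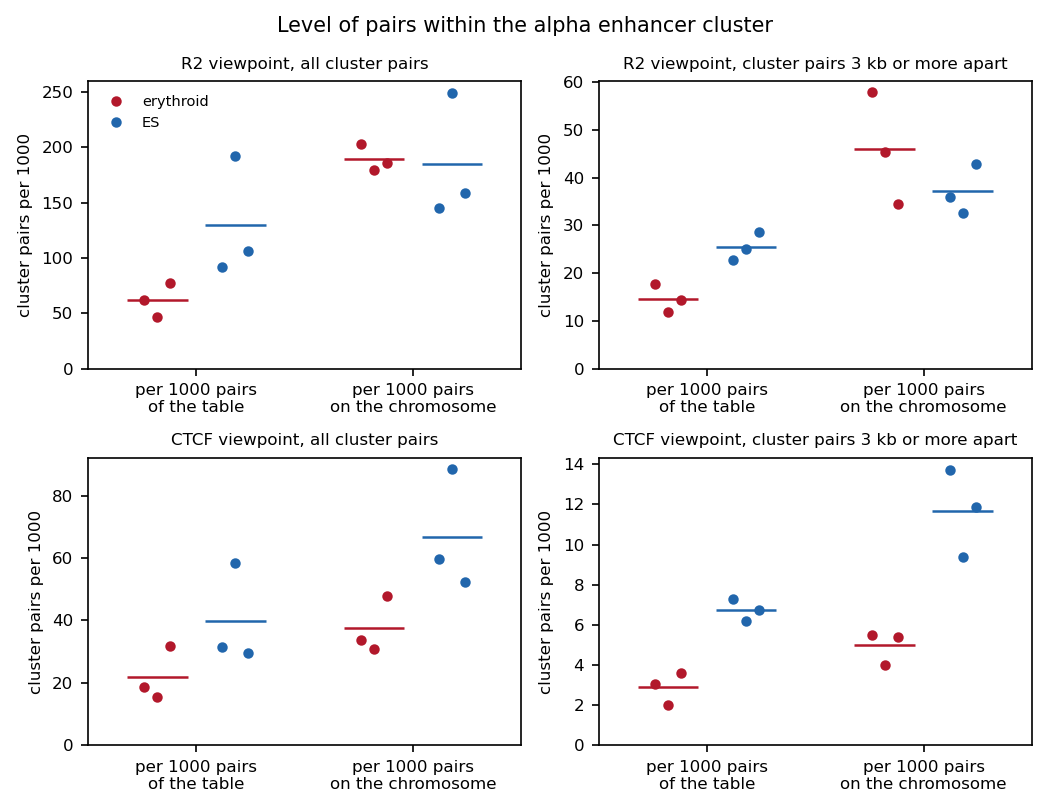
Cluster pairs per 1000 pairs of the whole table or per 1000 pairs on the viewpoint chromosome (vertical axes), for all cluster pairs and for those 3 kb or more apart; points are the 3 biological replicates of each cell type and lines their means. From R2 the groups separate only per table total; from CTCF the distant pairs are at 5.51 or below in erythroid and 9.40 or above in ES cells per 1000 on the chromosome.

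The cell type difference itself differed between the viewpoints once counts were set against the chromosome. That scale differs from the table total by the share of pairs on the chromosome. From R2 this share was 25.9% to 41.6% in erythroid and 63.3% to 77.0% in ES replicates. From CTCF it was 50.0% to 66.2% and 52.9% to 65.9%, with overlap. Both viewpoints were captured from the same libraries, so the log2 level from R2 minus that from CTCF was taken within each replicate. Its mean was 2.36 ± 0.35 in erythroid and 1.46 ± 0.16 in ES cells per 1000 on the chromosome, with no overlap (exact p = 0.1). For pairs 3 kb or more apart it was 3.19 ± 0.45 and 1.68 ± 0.25, again with no overlap (exact p = 0.1). Per 1000 of the table the means over all cluster pairs were 1.54 ± 0.23 and 1.70 ± 0.15, and the groups overlapped (exact p = 0.5). For pairs 3 kb or more apart the viewpoints were not compared on that scale. In all, 50 such single measures were compared, including the shares that follow, and the lowest Benjamini-Hochberg adjusted p over them was 0.25, so none passed 0.05.

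The share of the distant contacts that each segment took does not depend on the scaling. The shares of a replicate add up to its whole, so a larger share need not mean a higher level. Each pair 3 kb or more apart adds 1 contact to the segment of each of its fragments. From R2, Rm took 8.77%, 9.24% and 7.96% of these contacts in erythroid and 6.04%, 4.64% and 5.76% in ES replicates. Every erythroid replicate lay above every ES replicate. As a level, Rm contacts per 1000 pairs of the table were 3.10, 2.17 and 2.29 against 2.74, 2.33 and 3.29, with overlap. Per 1000 on the chromosome they were 10.1, 8.38 and 5.50 against 4.33, 3.03 and 4.92, without overlap. The gap between Rm and R4 took 4.33%, 3.61% and 3.06% against 1.47%, 0.899% and 1.32%, and R4 took 2.56%, 3.96% and 2.90% against 1.11%, 2.53% and 0.985%. The stretch downstream of R4 took 1.90%, 1.77% and 1.54% against 1.35%, 1.16% and 0.788%. These 4 segments form the end of the cluster that faces the globin genes, and in none did the groups overlap.

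The stretch upstream of R1, at the opposite end, took less in erythroid cells, as did the gap between R2 and R3 beside the viewpoint. The stretch upstream of R1 held 5.21%, 4.54% and 5.22% of distant R2 contacts in erythroid and 10.4%, 9.06% and 8.60% in ES replicates, and the gap between R2 and R3 held 11.7%, 8.87% and 9.49% against 12.6%, 13.3% and 15.7%. Neither pair of groups overlapped. R1 itself was at 12.1%, 13.8% and 12.2% against 10.6%, 12.7% and 10.7%, and R3 at 12.9%, 16.8% and 14.6% against 13.5%, 12.2% and 13.3%, where the groups overlapped.

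From CTCF the Rm share showed the same order, at 8.0%, 8.46% and 7.96% in erythroid and 5.46%, 4.53% and 4.64% in ES replicates, with no overlap. R4 from CTCF was at 2.38%, 4.85% and 2.83% against 1.78%, 2.48% and 2.74%, and the gap between Rm and R4 at 2.81%, 1.05% and 1.70% against 1.65%, 1.80% and 1.85%, with overlap in both. The stretch downstream of R4 was at 1.95%, 2.57% and 3.31% against 1.78%, 0.621% and 0.843%, with no overlap. The stretch upstream of R1 was at 19.5%, 21.2% and 17.2% against 17.9%, 15.1% and 18.9%, also with overlap.

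**Figure D3:**
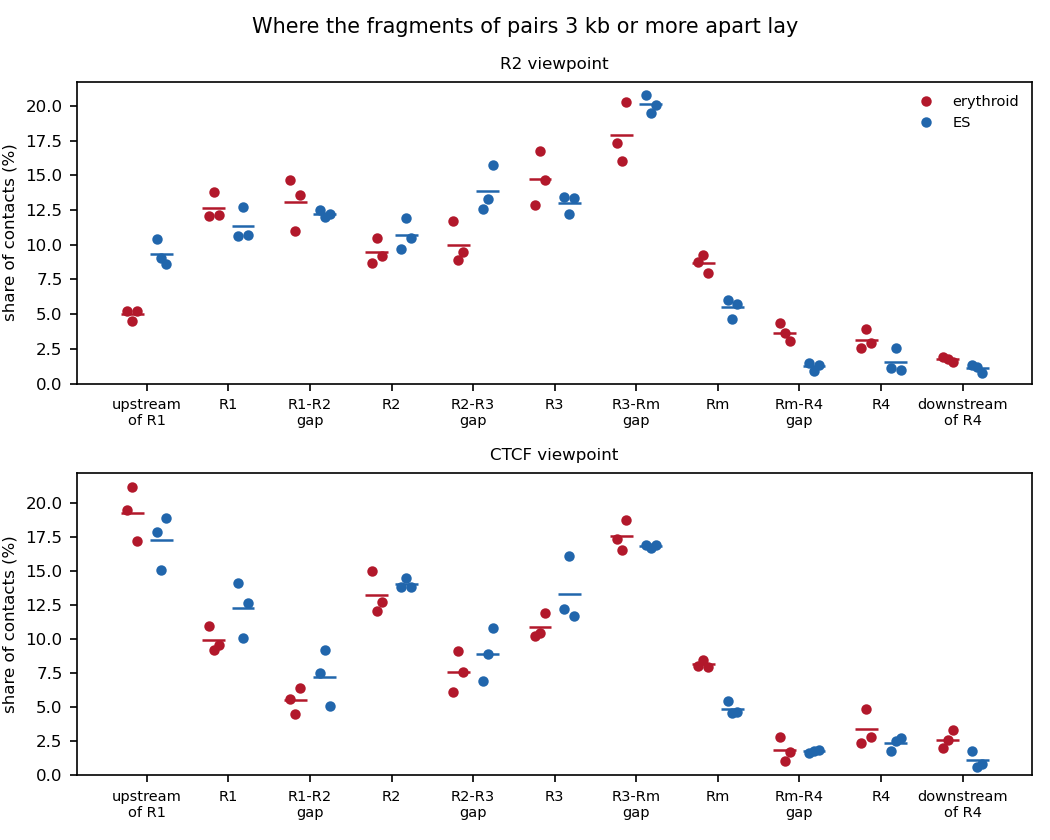
Share of the contacts of cluster pairs 3 kb or more apart (%, vertical axis) that fell in each of the 11 segments, ordered from the CTCF side to the globin gene side; points are biological replicates and lines means. The Rm points of the 2 cell types are apart from both viewpoints, at 7.96% or above against 6.04% or below.

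Segment pairs were then tested one by one with edgeR, with the table total as library size. All pairs of tiles with at least 30 counts in a window that reaches 120 kb beyond the cluster on either side entered the fit, and a call is an adjusted p under 0.05. From R2 all 66 segment pairs of the cluster were tested and 12 were called, 2 higher and 10 lower in erythroid cells. Over the whole window 23.8% of 1095 tile pairs were called, 1.74% higher and 22.1% lower, so the cluster's share of calls was below that of its surroundings. The median log2 change was -0.62 over the cluster's pairs and -1.71 over all pairs tested. In 27 of the 66 pairs (40.9%) the groups did not overlap, 24 lower and 3 higher, against 42.8% of all pairs.

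With the chromosome total as library size the split turned: 5 pairs were called higher and 0 lower, where 11.9% of the window's pairs were called, 6.67% higher and 5.21% lower, and the medians were 0.52 and -0.70. The 2 higher pairs of the first fit were among these 5, and none of the 10 lower pairs was called. The count also changed with fewer replicates: without erythroid replicate 1, 2 or 3 it was 7, 3 or 6 in place of 12. Calls over the window fell too, from 261 to 155, 128 or 186. DESeq2 with its own size factors called 9 pairs higher and 0 lower, where it called 18.9% of the window's pairs, 8.49% higher and 10.4% lower.

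Both pairs called higher include the gap between Rm and R4. That gap between Rm and R4 paired with R4 at 44, 79 and 68 counts in erythroid and 9, 3 and 11 in ES replicates, or 0.166, 0.274 and 0.145 against 0.0209, 0.0215 and 0.0516 per 1000 pairs of the table. The lowest erythroid level was above the highest ES level, and the pair rose by 2.63 on the log2 scale (SE 0.76, edgeR adjusted p = 0.0167). It includes the 181 bp fragment described with the promoter sequence: that fragment and its neighbour, 32167319 to 32167701, gave 9, 28 and 35 of the erythroid and 3, 1 and 4 of the ES counts. With neighbouring fragments left out the log2 change was 2.38 (adjusted p = 0.0761) and with pairs under 1 kb left out it was 1.26 (adjusted p = 0.558), so the call rested in part on close fragments. It was also lost without erythroid replicate 2 (adjusted p = 0.0942) or ES replicate 1 (0.0571).

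The gap between R1 and R2 paired with the gap between Rm and R4, about 18.5 kb away, at 83, 33 and 107 erythroid and 17, 1 and 15 ES counts. The levels were 0.313, 0.115 and 0.228 against 0.0394, 0.00718 and 0.0703 per 1000, with no overlap. The rise was 2.43 (SE 0.75, adjusted p = 0.0232), and with pairs under 1 kb left out it was 2.20 (adjusted p = 0.0429). Without erythroid replicate 1 or 3 the adjusted p was 0.114 or 0.0666.

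With the chromosome total, the same 2 pairs changed by 3.79 (SE 0.71) and 3.45 (SE 0.71), and the other 3 calls were Rm with R4, the gap between R2 and R3 with that between Rm and R4 (2.25, SE 0.68, adjusted p = 0.0330), and the gap between Rm and R4 with itself (1.49, SE 0.45, adjusted p = 0.0321). Of the 34 R2 pairs that include Rm, R4, the gap between them or the stretch downstream of R4 but not the stretch upstream of R1, 2 were called higher and 0 lower per table total, with a median of 0.27. Per chromosome total 5 were called, all of them higher, and 33 of the 34 were above 0 with a median of 1.37. Over the window 6.67% were called higher on that scale and the median was -0.70. The pairs left out, those with the stretch upstream of R1, went mostly the other way on that scale, and none was called. They were at -0.41 with Rm, -0.15 with the gap between Rm and R4, 0.49 with R4 and -0.31 with the stretch downstream of R4.

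Pairs with the stretch upstream of R1 held most of the lower calls per table total: 6 of 11 were called, all lower, against 22.1% over the window, with a median of -1.48, and none per chromosome total, where the median was -0.41. The largest fall joined it to the gap between R2 and R3, at 0.309, 0.0590 and 0.181 per 1000 in erythroid and 0.753, 0.718 and 1.01 in ES replicates. No replicate crossed to the other group, and the log2 change was -2.18 (SE 0.55, adjusted p = 0.00689). With R3 the levels were 0.169, 0.115 and 0.330 against 0.846, 0.811 and 0.788 (log2 change -1.98, SE 0.51, adjusted p = 0.00778).

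Within the stretch itself they were 2.74, 2.13 and 4.72 against 8.24, 17.5 and 9.56 (-1.88, SE 0.54, adjusted p = 0.0164). With the gap between R3 and Rm they were 0.286, 0.226 and 0.279 against 0.814, 0.804 and 0.872 (-1.65, SE 0.48, adjusted p = 0.0164). The ES levels in the latter pair differed little between replicates, and ES replicate 2 did not stand out as it did for close pairs. The remaining calls of this group were with the gap between R1 and R2 and with R2.

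Pairs among segments from R1 to the gap between R3 and Rm gave 4 calls of 21, all lower, a share near the 22.1% called lower over the window. The largest joined the gap between R2 and R3 to the gap between R3 and Rm, at 0.968, 0.545 and 0.647 against 1.60, 2.17 and 2.82 per 1000 (-1.61, SE 0.48, adjusted p = 0.0204). None of the 21 was called per chromosome total, and their median there was 0.04.

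**Figure D4:**
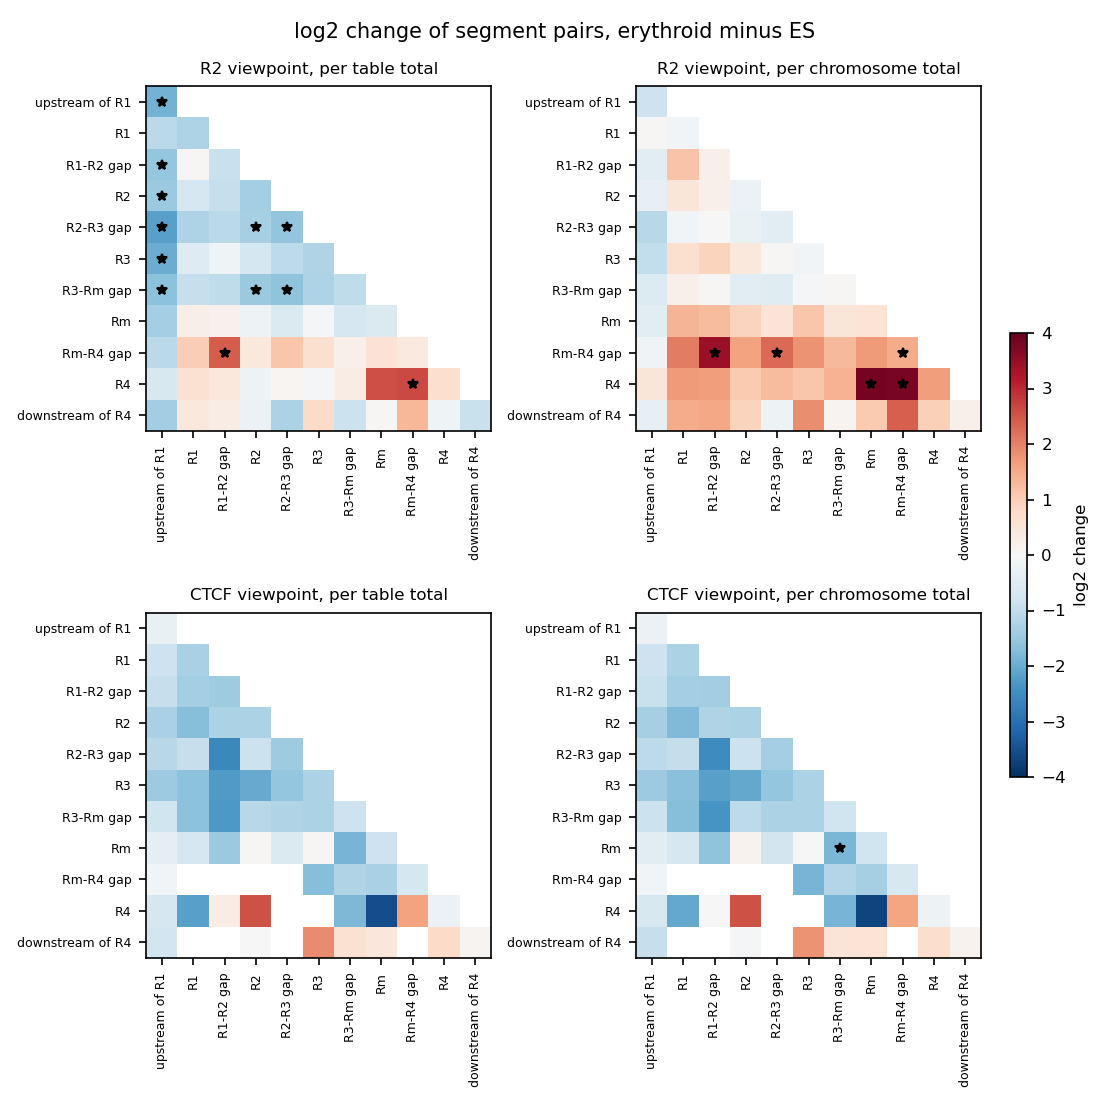
log2 change, erythroid minus ES (colour, limited to 4 in either direction), of each pair of segments, for both viewpoints and for both library sizes; stars mark adjusted p under 0.05 in edgeR and blank cells within the triangle were below 30 counts. From R2, 43 of 66 cells are below 0 with the table total and 20 with the chromosome total.

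None of the 6 pairs of enhancer windows seen with R2 was called. R1 with R3, which lie on opposite sides of the viewpoint, had the highest level, at 0.678, 0.698 and 0.633 per 1000 in erythroid and 0.793, 0.990 and 1.08 in ES replicates. These groups did not overlap (log2 change -0.51, SE 0.46, adjusted p = 0.421), but per chromosome total the change was 0.63. R3 with Rm was next, at 0.565, 0.601 and 0.488 against 0.556, 0.610 and 0.544 (-0.05, SE 0.46), with overlap, and 1.10 per chromosome total (adjusted p = 0.0901).

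R1 with Rm was at 0.599, 0.302 and 0.249 against 0.329, 0.201 and 0.436 (0.24, SE 0.52). Erythroid replicate 1 was the highest, and without it the change was -0.23. R1 with R4 was at 0.177, 0.104 and 0.198 against 0.0858, 0.179 and 0.0563 (0.60, SE 0.66), and R3 with R4 at 0.0942, 0.142 and 0.138 against 0.0556, 0.266 and 0.0844 (-0.08, SE 0.70), both with overlap.

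Rm with R4 was the pair of enhancer windows with the greatest difference. It had 29, 37 and 33 erythroid counts and 3, 7 and 0 ES counts, and no ES replicate reached an erythroid one in level (0.109, 0.129 and 0.0703 against 0.00695, 0.0502 and 0 per 1000). The log2 change was 2.56 (SE 1.17, edgeR adjusted p = 0.103), so it was not called. Per chromosome total it was 3.83 (SE 1.05, adjusted p = 0.0190), and DESeq2 gave 3.72 with an adjusted p of 0.00788. It was past the threshold in 8 of 22 settings and positive in all of them, with adjusted p from 0.00615 to 0.255. The R4 window holds 4 fragments, so this pair rests on few ligation sites.

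**Figure D5:**
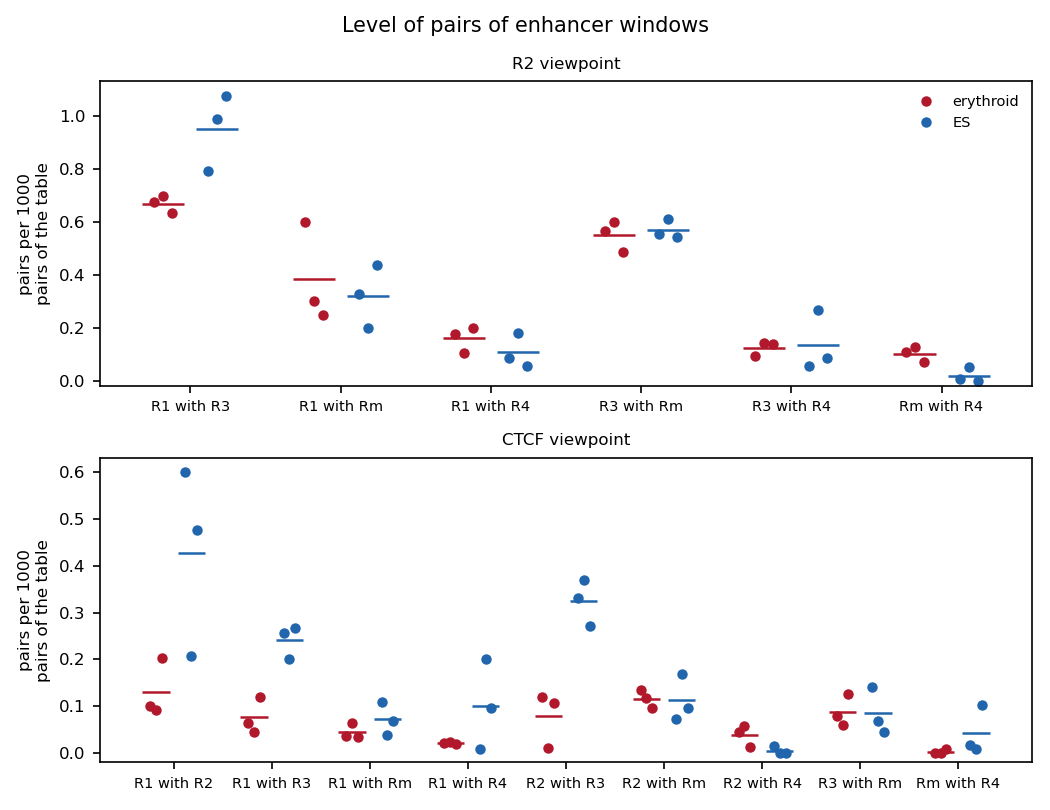
Level of each tested pair of enhancer windows, in pairs per 1000 pairs of the table (vertical axis), for both viewpoints; points are biological replicates and lines means. From R2 the Rm with R4 points are at 0.0703 or above in erythroid and 0.0502 or below in ES cells; from CTCF the R1, R2 and R3 pairs among themselves are lower in erythroid cells.

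Together, pairs joining 2 different enhancer windows made up 3.58%, 4.25% and 2.30% of erythroid R2 cluster pairs and 1.99%, 1.2% and 2.07% of ES ones. The groups did not overlap (exact p = 0.1). Of the pairs 3 kb or more apart alone they made up 12.2%, 15.8% and 12.1% against 8.05%, 9.08% and 7.70%, again with no overlap (exact p = 0.1). With windows of 2 kb the shares of all cluster pairs were 1.30%, 1.39% and 0.779% against 0.862%, 0.370% and 0.915%, which overlapped. From CTCF the share was 3.30%, 3.20% and 2.33% against 5.04%, 2.17% and 4.83%, also overlapping. Of the CTCF pairs 3 kb or more apart it was 19.8%, 24.5% and 20.3% against 21.1%, 20.1% and 19.2%, with overlap (exact p = 0.6), and the direction of the means turned.

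Pairs within a single enhancer window are mostly close ligations, and none was called from R2. R1 with itself was at 4.03, 4.10 and 6.12 per 1000 in erythroid and 6.61, 20.1 and 7.08 in ES replicates (log2 change -1.24, SE 0.55). R3 with itself was at 5.63, 4.35 and 7.51 against 9.65, 20.5 and 10.2 (-1.21, SE 0.53). ES replicate 2 was the highest in both. The changes of the R2 edges, Rm and R4 with themselves were -1.35, -0.58 and 0.66. Per chromosome total the 5 values were -0.11 for R1, -0.23 for R2, -0.10 for R3, 0.54 for Rm and 1.67 for R4, with no call.

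From CTCF, 56 segment pairs of the cluster had 30 counts and 0 were called by edgeR or by DESeq2, against 1.03% of 1355 tile pairs of the window in edgeR (0.664% higher, 0.369% lower) and 3.03% in DESeq2 (2.36% higher, 0.664% lower). At an unadjusted p under 0.05 edgeR gave 20 of the 56. The window's share at that threshold was not counted, so the 20 cannot be set against the adjusted shares. The median was -1.10 over the cluster's pairs and -0.11 over all pairs, 46 of the 56 were below 0, and 18 (32.1%) had groups that did not overlap, all of them lower in erythroid cells, against 19.2% of all pairs. Scaling to the chromosome left the picture much as it was, with 1 call against 1.4% of the window's pairs (0.959% higher, 0.443% lower), the gap between R3 and Rm with Rm (-1.84, SE 0.51, adjusted p = 0.0321).

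Among enhancer pairs from CTCF, those of R1, R2 and R3 had non-overlapping groups but no call. R2 with R3 was at 0.119, 0.0114 and 0.107 per 1000 in erythroid and 0.332, 0.370 and 0.273 in ES replicates (-2.02, SE 0.65, adjusted p = 0.0907). R1 with R2 was at 0.101, 0.0914 and 0.202 against 0.601, 0.208 and 0.477 (-1.70, SE 0.59, adjusted p = 0.131). R1 with R3 was at 0.0633, 0.0457 and 0.120 against 0.256, 0.200 and 0.267 (-1.64, SE 0.70, adjusted p = 0.235).

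Pairs with Rm did not follow that order. R2 with Rm was at 0.134, 0.118 and 0.0957 against 0.0731, 0.169 and 0.0965 (0.05, SE 0.78), and R3 with Rm at 0.0782, 0.0609 and 0.126 against 0.141, 0.0693 and 0.0454 (0.04, SE 0.88), with overlap in both. R1 with Rm was at 10, 17 and 16 against 42, 5 and 12 counts (-0.68, SE 1.08). Pairs with R4 were thinner still: R1 with R4 had 6, 6 and 9 against 3, 26 and 17 counts (-2.18, SE 1.13), R2 with R4 had 12, 15 and 6 against 6, 0 and 0 (2.54, SE 1.95), and Rm with R4 had 0, 0 and 4 against 7, 1 and 18 (-3.54, SE 2.03). The groups overlapped in each, and R3 with R4 did not reach 30 counts. The changes within windows from CTCF were -1.30 for R1, -1.26 for R2, -1.26 for R3, -0.82 for Rm and -0.25 for R4, with no call.

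To set pairs against the frequency of their own parts, an expected count was computed for each replicate from how often each of the 2 tiles was contacted and from how far apart they lie. Over all enhancer pairs the log2 ratio of observed to expected counts from R2 was 0.29, 0.12 and 0.10 in erythroid and 0.0039, -0.0025 and 0.22 in ES replicates, with overlap (exact p = 0.5). From CTCF it was 0.64, 0.92 and 0.38 against 0.15, -0.19 and 0.45, also with overlap (exact p = 0.2). R3 with Rm separated the groups from both viewpoints, as a description without a test of its own: 0.65, 0.76 and 0.58 against 0.17, 0.06 and 0.13 from R2, and 1.45, 1.49 and 1.68 against 0.47, -0.70 and -0.61 from CTCF. With expected counts fitted on the cluster alone the R2 values were 0.11, 0.32 and 0.12 against -0.02, 0.18 and 0.22, which overlapped, and the CTCF values were 0.19, 1.10 and 0.82 against 0.06, -1.38 and -1.18. R1 with R3 from R2 was at 0.12, 0.06 and 0.06 against -0.01, 0.18 and 0.23. Fitted on the cluster it was at 0.10, 0.34 and 0.36 against 0.25, 0.87 and 0.47. Other pairs separated the groups from 1 viewpoint. Rm with R4 from R2 was at -0.879, -0.502 and -1.198 against -3.995, -2.612 and -5.348, below its expected count in every replicate. Separations were rounded to steps of 3 kb, so this pair, whose windows do not touch, shared a class with tiles that do. Touching tiles include neighbouring fragments across their edge, so values below 0 cannot be read here as a lack of contacts. Fitted on the cluster it was at -1.04, -1.53 and -1.92 against -3.94, -2.98 and -5.09. For single pairs 0.5 was added to observed and expected counts. ES replicate 3 had 0 counts of this pair, so its value depends on that addition. From CTCF, R2 with Rm and R2 with R4 separated the groups. With the fit on the cluster R2 with R4 still did, and R2 with Rm overlapped. ES replicates 2 and 3 had 0 counts of R2 with R4, against 4.89 and 3.73 expected, or 0.784 and 3.91 with the fit on the cluster.

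R2 lies inside the cluster, so its three-way contacts can join both sides of it or stay on 1 side. Pairs on both sides made up 16.0%, 12.7% and 10.3% of erythroid and 13.6%, 7.09% and 15.0% of ES cluster pairs, with overlap (exact p = 0.7). Without erythroid replicate 1 or ES replicate 2 the difference of the means changed from 1.10 to -0.42 or -1.30 percentage points. Of pairs 3 kb or more apart, 55.0%, 49.4% and 54.5% against 53.8%, 52.6% and 54.1% spanned R2 (exact p = 1). Pairs with both fragments on the R3 side made up 53.7%, 53.9% and 54.9% of erythroid and 54.7%, 55.9% and 52.6% of ES cluster pairs, and those with both on the R1 side 30.3%, 33.5% and 34.8% against 31.7%, 37.0% and 32.4%.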

How the data were processed

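Tri-C contacts were analysed from the tables of 2 viewpoints, R2 and CTCF. The deposited values are whole-number counts per pair of NlaIII fragments and library, as the files show. The submitters' processing notes name Trim Galore, Bowtie and mm9, and duplicate removal and fragment calling are not given in the sources used here. Technical replicates were summed. edgeR 4.0.16 (quasi-likelihood test, R 4.3.3) was fitted per viewpoint on 91 tiles: the 11 segments and 40 outer tiles of 3 kb per side. The table total was the library size, without normalization factors, and p-values were Benjamini-Hochberg adjusted over all tile pairs with 30 counts. SE was taken as the size of the log2 change over the root of F. DESeq2 1.42.0 was run beside it. Single measures had exact permutation tests (two-sided), whose lowest p at 3 against 3 is 0.1. Expected counts took 200 rounds of iterative scaling. The scripts were tested on simulated data, with Python 3.11.15. Of simulated log2 changes of 1 in either direction edgeR called 1.83% from R2 and 3.09% from CTCF. Of those of 2 it called 13.2% and 16.5%. The changes were placed at random over all tile pairs of the window, without a shift shared by most pairs. The share for the cluster's pairs alone was not computed. A pair that was not called can therefore still differ. Pairs named are all enhancer pairs, each window with itself, up to 5 called segment pairs per direction whose groups do not overlap, and the 3 leading fragment pairs and fragments per cell type. Members, lists and tests were chosen with earlier results of these data known. Counts carry no molecular identifiers. Gene names and the promoter come from tables of GRCm38.p6, and no coordinate was converted between assemblies. Alternatives covered library size, counting, filters, close pairs, technical replicates and leaving out each replicate. The levels of pairs 3 kb or more apart, and the removal of neighbouring fragments, were added after seeing the data.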

Additional observations from a re-analysis of the deposited data

How the results depend on the processing

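No single measure could pass 0.05 at 3 against 3, so only directions are compared. Those that kept their direction under every alternative tried were the CTCF levels, of all pairs and of pairs 3 kb or more apart. The share of pairs joining 2 enhancer windows from R2 did so too. From CTCF that share kept its direction under the alternatives of counting, window size and replicates. Among CTCF pairs 3 kb or more apart alone it turned, to 1.37 percentage points. The R2 levels kept their direction except under the 2 other scalings. Per 1000 pairs on the chromosome and in the tested window the log2 difference was 0.078 and 0.020 for all pairs, and 0.28 and 0.23 for pairs 3 kb or more apart. The difference between the viewpoints turned under the same scalings to 0.90 and 0.74, and was 0.15 when a fragment pair counted at most once in a library and 0.069 with pairs under 1 kb left out. The difference in median separation turned to -0.59 kb from R2 with each pair counted once and to 0.22 kb from CTCF with pairs under 1 kb left out. The ratio of observed to expected counts turned with the first technical replicates alone, to -0.15 from R2 and -0.044 from CTCF, and to -0.16 from R2 with expected counts fitted on the cluster alone. The share on both sides of R2 turned to -2.88, -2.39 and -0.29 percentage points with each pair counted once, with pairs under 1 kb left out and with neighbouring fragments left out. The cause was not tested.

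The 12 segment pairs called from R2, 2 higher and 10 lower, became 11 with TMM factors, all higher, 5 with the chromosome total, 6 with the window total, 5 with the cluster total, 7 with at least 1 count, 22 (4 higher, 18 lower) with each fragment pair counted once, 21 (1 and 20) with pairs under 1 kb left out, 4 with the first technical replicates alone, and 3 with close pairs left out and the chromosome total together. Over the window the R2 calls were 261 of 1095 at first and 130 of 1095 with TMM factors. With each pair counted once they were 258 of 455, and 22 of 59 in the cluster, a smaller share. With pairs under 1 kb left out they were 270 of 1027, and 21 of 63 in the cluster, a larger share. With the first technical replicates alone they were 99 of 496, and 4 of 61 in the cluster. The 2 higher calls were kept under each library size tried. Both were lost with the first technical replicates alone, and 1 was lost with neighbouring fragments or pairs under 1 kb left out, the latter also with the chromosome total, and without any 1 of the erythroid replicates or ES replicate 1. Of the 10 lower calls 0 were kept with the chromosome total and 10 with each pair counted once. The 0 calls from CTCF became 1, 3 and 1 with the chromosome, window and cluster totals, and 4 with each pair counted once. Over the window the CTCF calls were 14 of 1355 at first, and 19, 24 and 65 of 1355 with these totals. With each pair counted once they were 36 of 570, and 4 of 35 in the cluster.

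With the biological replicate number as a block, 7 R2 pairs were called, 2 higher and 5 lower, all among the first 12. Over the window 183 of 1095 tile pairs were called with the block. Same-numbered replicates did not deviate together (correlations -0.04, -0.01 and -0.04 from R2 and -0.01, 0.01 and -0.04 from CTCF), so the numbers gave no pairing. The block turned R3 with R4 from R2 to 0.19 and R4 with itself from CTCF to 0.15, neither called.

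Leaving out 1 replicate at a time gave log2 differences of -1.23 to -0.70 for the R2 level, -1.16 to -0.55 for the CTCF level, -0.96 to -0.67 and -1.44 to -1.02 for pairs 3 kb or more apart from R2 and CTCF, and -0.26 to -0.04 between the viewpoints. The difference in the share joining 2 enhancer windows was 1.19 to 2.16 points from R2 and -1.99 to -0.55 from CTCF, that on both sides of R2 -1.30 to 2.64, the median separation -0.00275 to 0.042 kb from R2 and -0.0433 to -0.0151 kb from CTCF, and the observed to expected ratio 0.03 to 0.17 and 0.34 to 0.66. Calls ranged from 3 to 13 from R2 and from 0 to 1 from CTCF. Over the window they ranged from 128 to 288 from R2 and from 1 to 17 from CTCF.

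Enhancer pairs near 0 turned most. The values that follow are with the chromosome, window and cluster totals, TMM factors, DESeq2, and close pairs left out with the chromosome total. From R2 they were 0.63, 0.55, 0.51, 0.87, 0.58 and 0.48 for R1 with R3, 1.10, 1.03, 0.98, 1.34, 1.05 and 0.94 for R3 with Rm, 1.11, 1.13, 1.19, 1.31, 1.01 and 0.78 for R3 with R4, and 0.54, 0.56, 0.58, 0.76, 0.44 and 0.74 for Rm with itself. TMM factors gave 0.11 for R1, 0.0026 for R2 and 0.14 for R3 with themselves, and close pairs left out with the chromosome total gave 0.59 for R1 and 0.12 for R3. With the first technical replicates alone, R1 with Rm was -0.084 and R1 with R4 -0.088, and with pairs under 1 kb left out R1 with Rm was -0.078. R3 with Rm was 0.061 without the first erythroid technical replicates, and R3 with R4 was 0.12 there and 0.032 with each pair counted once. From CTCF, R2 with Rm was -0.054 with pairs under 1 kb left out, -0.0015 with neighbours left out, -0.038 without the first erythroid technical replicates, -0.32 with the first alone and -0.018 with close pairs left out and the chromosome total. R3 with Rm was -0.013 with the chromosome total and -0.41 with each pair counted once. With the cluster total R1 with Rm was 0.15, Rm with itself 0.097 and R4 with itself 0.75.

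Single replicates turned the same pairs. With 1 left out, the R2 values ran from -0.23 to 0.52 for R1 with Rm, -0.11 to 0.033 for R3 with Rm, -0.47 to 0.85 for R3 with R4, -0.87 to 0.19 for Rm with itself and -0.19 to 1.43 for R4 with itself. Those from CTCF ran from -0.19 to 0.45 for R2 with Rm, -0.31 to 0.63 for R3 with Rm, -1.48 to 0.0081 for Rm with itself and -0.72 to 1.04 for R4 with itself. Several pairs with R4 and with the segments beside it have under 10 counts in a replicate.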
